A study of Mus musculus with 10 samples.

Results

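The cytosolic ribosomal protein genes were described in hearts of wild-type C57BL/6 male mice with septic cardiomyopathy caused by lipopolysaccharide. Members were the protein-coding rows of the expression table with a symbol beginning Rpl or Rps and a digit, together with Rplp0, Rplp1, Rplp2 and Rpsa, without the Rps6k kinases, Rps19bp1 and the pseudogene rows. This rule used names only and found 84 genes of 30074, of which 51 belonged to the large and 33 to the small subunit. In the LPS+ART group, 5 mice received artesunate, an antimalarial endoperoxide, intraperitoneally at 50 mg/kg 10 min before and again 4 h after LPS (lipopolysaccharide, a bacterial endotoxin). The 5 mice of the LPS+Vehicle group received LPS without the drug. All were 8 to 12 weeks old and weighed about 25 g, and cardiac function was assessed 24 h after LPS. No heart without LPS was analysed here, so every difference is between 2 groups that both carried endotoxin.

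Each ribosome is built from a small subunit, which decodes the mRNA, and a large subunit, which joins the amino acids. Most of the proteins are present as a single copy. The mRNAs of these proteins begin with a terminal oligopyrimidine (TOP) tract that ties their translation to mTORC1, and MYC drives much of the transcription of ribosome components. A few members have a paralog that can take their place in the ribosome. In adult heart and skeletal muscle the best known is Rpl3l, the striated-muscle counterpart of Rpl3.

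Values are FPKM, reads per kilobase of exon and for a fixed number of library reads, as deposited. The LPS+ART libraries held 30684056 to 36679402 reads and the LPS+Vehicle libraries 29980900 to 54222272. Libraries 2 and 5 of LPS+Vehicle resembled each other closely, their reads differing by a chi-square of 1.76 per degree of freedom, against 13.6 to 47.8 for every other pair within a group. LPS+ART replicates 3 and 4 had the lowest summed level of the members in their group. Counts are therefore also given with the vehicle pair averaged as 1 library and with the other pair left out. The labelled tissue was checked by its defining markers: Myh6, Myl2 and Myl3, contractile genes of cardiomyocytes, averaged 2302, 1825 and 1624 FPKM in LPS+ART and 2374, 1288 and 1413 FPKM in LPS+Vehicle.

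In the values as deposited, most ribosomal protein genes differed little between LPS+ART and LPS+Vehicle hearts, while a handful moved strongly and in opposite directions. After median-ratio scaling between libraries, 62 of 82 tested members were called higher in LPS+ART. Rpl3l was 1.77-fold higher in LPS+ART and its partner Rpl3 was 1.81-fold higher in LPS+Vehicle, by mean FPKM. Rpl10 fell, and Rpl22l1, Rps13 and Rpl10a rose. With limma on log2(FPKM + 1), a filter that kept genes averaging 0.5 FPKM or more and a Benjamini-Hochberg adjusted p under 0.05, 8 of the 82 tested members were called higher in LPS+ART and 15 lower. Of the 8, Rps10 and Rpl24 passed the filter through LPS+ART alone, their LPS+Vehicle means being under 0.5 FPKM. Over all 13314 genes tested, 11.8% were called higher and 52.9% lower. The members' log2 fold changes ran from -0.86 to 0.83, and 78 of the 82 were smaller than 0.5 in size.

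The values of all genes were shifted between the groups, and the direction of many members depended on how the shift was treated. The median log2 fold change was -0.08 over the members, -0.27 over all genes tested and -0.10 over the 1623 other genes with a mean of 20 to 500 FPKM, the range that held 75 of the 84 members. After median-ratio scaling, which brings the median of all genes to 0.02, the members' median was 0.30 and that of the other genes of 20 to 500 FPKM was 0.28. Then 62 members were called higher in LPS+ART and 2 lower, while 29.9% of all genes were called higher and 30.3% lower. Among the other genes of 20 to 500 FPKM the shares after scaling were 54.8% higher and 13.6% lower. Of the 15 members lower as deposited, 2 stayed lower after scaling, 9 were not called and 4 were called higher. All 8 higher members stayed higher. Scaling raised the members' median from -0.08 to 0.30, so lower calls were bound to shrink and higher calls could hardly be lost. The contrast between them is therefore no separate result. With the trend of change on expression level removed by cyclic loess, 13 members were called higher and 15 lower, against 29.0% and 28.7% of all genes and 27.0% and 26.2% of the other genes of 20 to 500 FPKM. Centred on the median member, the libraries gave 14 members higher and 6 lower (14.6% and 44.2% of all genes). This centring uses the members' own values and brings their median to 0.03, so these counts do not compare members with all genes. With mitochondrially encoded genes left out of the library totals, 10 members were higher and 7 lower (15.0% and 47.0% of all genes). Before any scaling, the shares among the other genes of 20 to 500 FPKM were 19.4% higher and 35.7% lower.

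**Figure D1:**
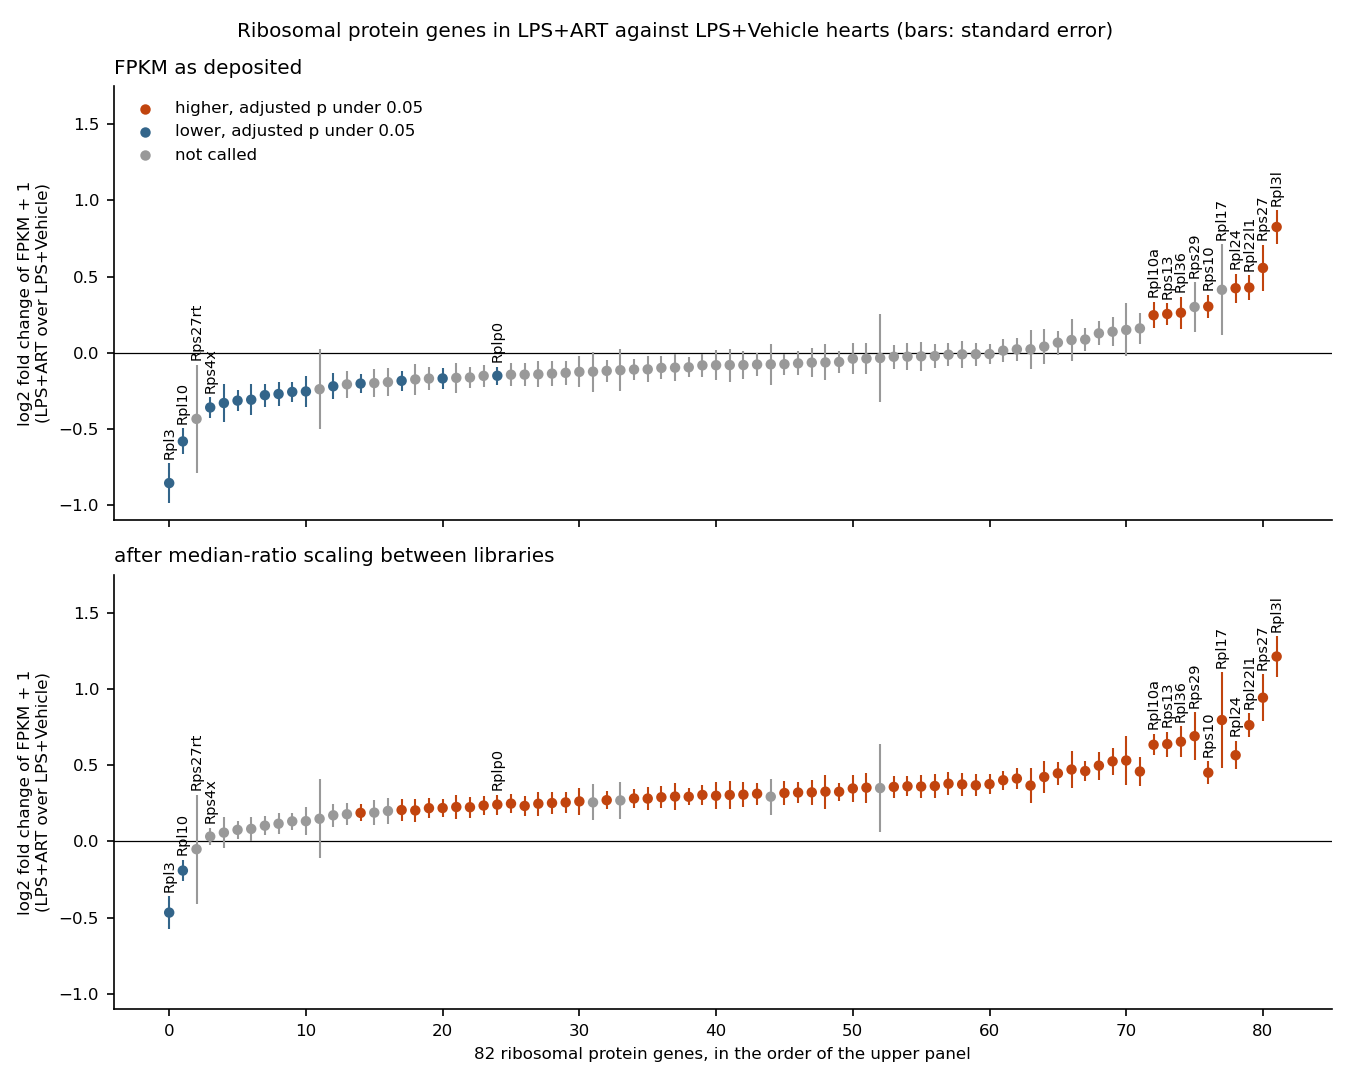
Log2 fold change of FPKM + 1 (LPS+ART over LPS+Vehicle, vertical axis) of the 82 tested ribosomal protein genes, in the same order in both panels, as deposited (top) and after median-ratio scaling (bottom). Bars are standard errors and colours mark adjusted p under 0.05; 8 genes are called higher and 15 lower as deposited, 62 and 2 after scaling, with Rpl3l and Rpl3 at the ends in both.

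Summed over the 84 members, the level was 7842, 7659, 6577, 7037 and 7866 FPKM in LPS+ART replicates 1 to 5. It was 7758, 8558, 7429, 7876 and 7967 FPKM in LPS+Vehicle replicates 1 to 5. The groups overlapped, averaging 7396 ± 568 FPKM in LPS+ART and 7918 ± 412 FPKM in LPS+Vehicle (SD, n = 5 each). After median-ratio scaling they did not overlap, at 7835 to 8790 scaled FPKM in LPS+ART and 6380 to 7284 scaled FPKM in LPS+Vehicle. Mitochondrially encoded genes, which share the library total with the members, took 24.7 to 30.2% of the LPS+ART reads and 20.99 to 23.7% of the LPS+Vehicle reads; their part in the members' sums was not tested. The large and small subunits kept their proportion. The ratio of large-subunit to small-subunit FPKM averaged 1.34 in LPS+ART (SD 0.0175) and 1.33 in LPS+Vehicle (SD 0.0146, n = 5 each). As deposited, 5 of 49 large-subunit members were called higher and 8 lower, and 3 of 33 small-subunit members higher and 7 lower.

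**Figure D2:**
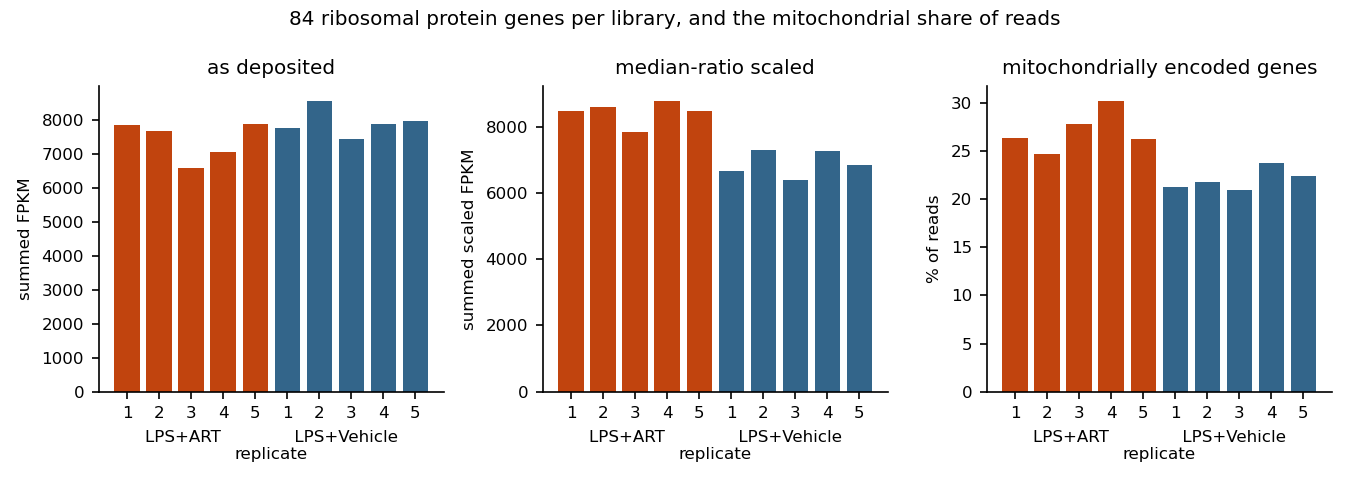
Summed FPKM of the 84 ribosomal protein genes in each library as deposited (left) and after median-ratio scaling (middle), and the share of reads from mitochondrially encoded genes (right), with LPS+ART in red and LPS+Vehicle in blue. The deposited sums of the groups overlap and the scaled sums do not, and all 5 LPS+ART libraries hold a larger mitochondrial share than any LPS+Vehicle library.

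Centring on the median member is built from the members' own values, so it sets a member against the other members only. Calls that held in 4 settings were made in the same direction as deposited, after median-ratio scaling, after cyclic loess and with this centring. These were Rpl3 and Rpl10 as lower, and Rpl10a, Rps13, Rpl22l1, Rps27 and Rpl3l as higher. Rps10 and Rpl24 were also called higher in all 4, but on few reads and with the filter met in LPS+ART alone, so their calls are a description only. Rps27 shared its sequence with another row, as given with that gene. Of the 15 members lower as deposited, 9 stayed lower with any single library left out. The count was 9 with LPS+Vehicle replicates 2 and 5 averaged and 7 without LPS+ART replicates 3 and 4. Those LPS+ART libraries were picked for their low member sums. Leaving them out therefore favoured the loss of lower calls and the keeping of higher ones. Of the 8 higher members the same counts were 6, 7 and 8. Rps10 and Rpl24 are in each of these counts, which therefore rest in part on members that met the filter in LPS+ART alone. The plot of levels within a library shows the pattern by gene and replicate.

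**Figure D3:**
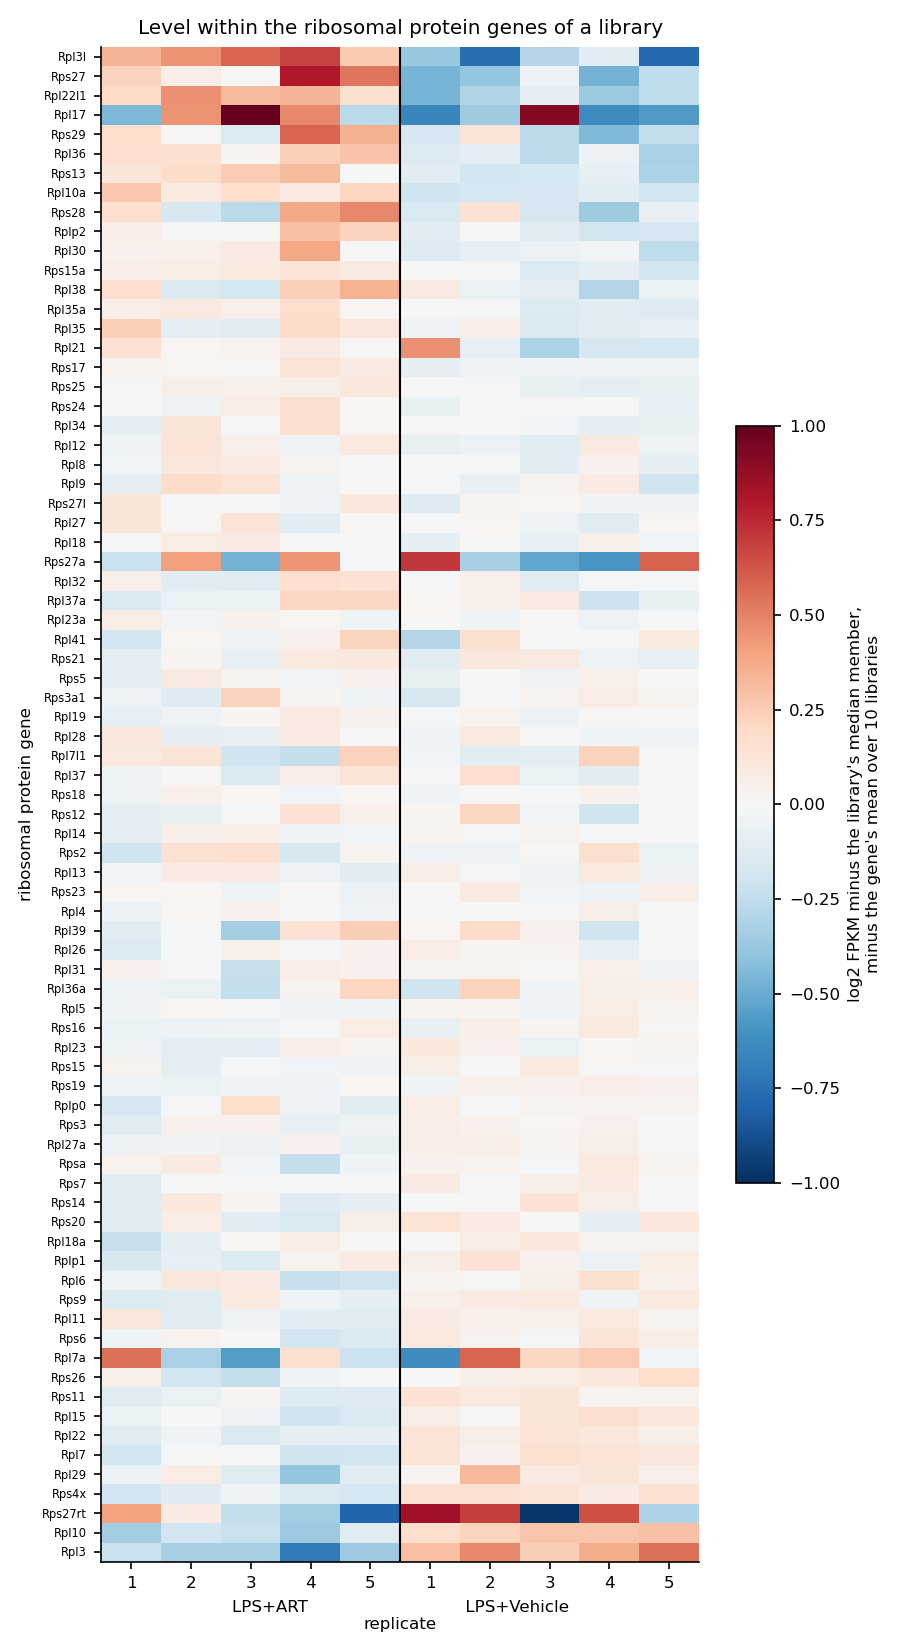
Level of each ribosomal protein gene averaging 5 FPKM or more (rows, except 1 not shown) in each library (columns), as log2 FPKM minus the library's median member and minus the gene's mean over the 10 libraries. Rpl3l at the top and Rpl3 at the bottom separate the groups in every library, most other rows are near 0, and Rpl17, Rps27a, Rpl7a and Rps27rt vary within both groups.

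Rpl3 and Rpl3l encode alternative versions of the same large-subunit protein, which reaches into the peptidyl transferase centre. Rpl3l (chromosome 17) stood at 105, 108, 100.3, 114 and 96.4 FPKM in LPS+ART replicates 1 to 5, against 61.3, 50.9, 62.2, 74.0 and 48.0 FPKM in LPS+Vehicle replicates 1 to 5. Every LPS+ART library was above every LPS+Vehicle library. Rpl3 (chromosome 15) stood at 71.8, 63.2, 53.7, 44.5 and 62.9 FPKM in LPS+ART, against 98.8, 121, 90.8, 105 and 121 FPKM in LPS+Vehicle. The groups were again apart, in the other direction. The log2 fold change was 0.83 for Rpl3l (SE 0.11, limma adjusted p = 6.69e-05) and -0.86 for Rpl3 (SE 0.13, limma adjusted p = 0.00015). After median-ratio scaling they were 1.21 and -0.47, and both calls were kept with any single library left out.

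The coding sequences of the pair differ along their length. Over 1209 aligned bases 73.9% were identical, and the coding sequence holds 406 codons in Rpl3l and 402 in Rpl3. The first 90 coding bases of each are shown because they let the pair be told apart, with the 21 differing bases in capitals (GENCODE M21 transcripts, build GRCm38, 5′ to 3′).
Rpl3l: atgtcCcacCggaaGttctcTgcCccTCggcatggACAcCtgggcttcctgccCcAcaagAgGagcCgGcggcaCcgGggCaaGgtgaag
Rpl3: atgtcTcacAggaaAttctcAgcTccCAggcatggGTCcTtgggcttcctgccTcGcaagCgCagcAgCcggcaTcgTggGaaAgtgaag

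Within a library, the ratio of Rpl3l to Rpl3 FPKM does not depend on scaling between libraries. It was 1.46, 1.71, 1.87, 2.56 and 1.53 in LPS+ART replicates 1 to 5, against 0.620, 0.421, 0.685, 0.707 and 0.397 in LPS+Vehicle replicates 1 to 5. Per kilobase of annotated exon, Rpl3l exceeded Rpl3 in all 5 LPS+ART libraries and was below it in all 5 LPS+Vehicle libraries. That order within LPS+ART rests on exon lengths of 1643 bases for Rpl3l and 3175 for Rpl3. In reads not divided by length, the ratio was 0.757 to 1.33 in LPS+ART, above 1 in 1 of 5 libraries, and 0.205 to 0.366 in LPS+Vehicle. The mean log2 ratio differed by 1.70, a 3.25-fold change of the ratio (exact two-sided permutation test, p = 0.00794, adjusted p = 0.0106 over 4 pairs). This p is the smallest that 5 against 5 libraries allow. The difference was 1.60 with LPS+Vehicle replicates 2 and 5 averaged and 1.51 without LPS+ART replicates 3 and 4, both past the threshold in the same exact test. Rows named as Rpl3 pseudogenes summed to 11.6 FPKM in LPS+ART and 22.9 FPKM in LPS+Vehicle, a difference in the same direction as that of Rpl3.

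Rpl22l1 and Rpl22 encode related RNA-binding proteins of the large subunit, and in mice Rpl22 protein is known to hold back Rpl22l1 mRNA. Rpl22l1 (chromosome 3) was at 7.23, 8.22, 6.32, 6.86 and 6.78 FPKM in LPS+ART and at 4.38, 5.29, 5.43, 4.70 and 5.23 FPKM in LPS+Vehicle. Rpl22 (chromosome 4) was at 31.7, 32.0, 25.2, 27.8 and 31.3 FPKM in LPS+ART and at 36.2, 37.1, 34.7, 36.1 and 35.6 FPKM in LPS+Vehicle. Neither gene overlapped between the groups. Rpl22l1 rose by a log2 fold change of 0.43 (SE 0.08, limma adjusted p = 0.000723). Rpl22 fell as deposited (-0.28, SE 0.08, limma adjusted p = 0.00692), but its sign turned to 0.10, without a call, after median-ratio scaling. The Rpl22l1 to Rpl22 ratio averaged 0.240 in LPS+ART (SD 0.0168) and 0.139 in LPS+Vehicle (SD 0.0141, n = 5 each), a log2 difference of 0.79 (exact permutation test, adjusted p = 0.0106). Rpl22 remained the more abundant of the pair, per length, in every library.

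The aligned stretch of 90 coding bases that follows holds 31 differences, in capitals, and starts at coding base 22 of Rpl22l1 and 37 of Rpl22 (same transcripts).
Rpl22l1: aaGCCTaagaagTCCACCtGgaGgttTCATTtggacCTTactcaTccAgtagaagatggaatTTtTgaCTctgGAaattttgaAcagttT
Rpl22: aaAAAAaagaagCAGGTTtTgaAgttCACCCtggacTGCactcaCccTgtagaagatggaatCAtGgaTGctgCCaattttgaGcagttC

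**Figure D4:**
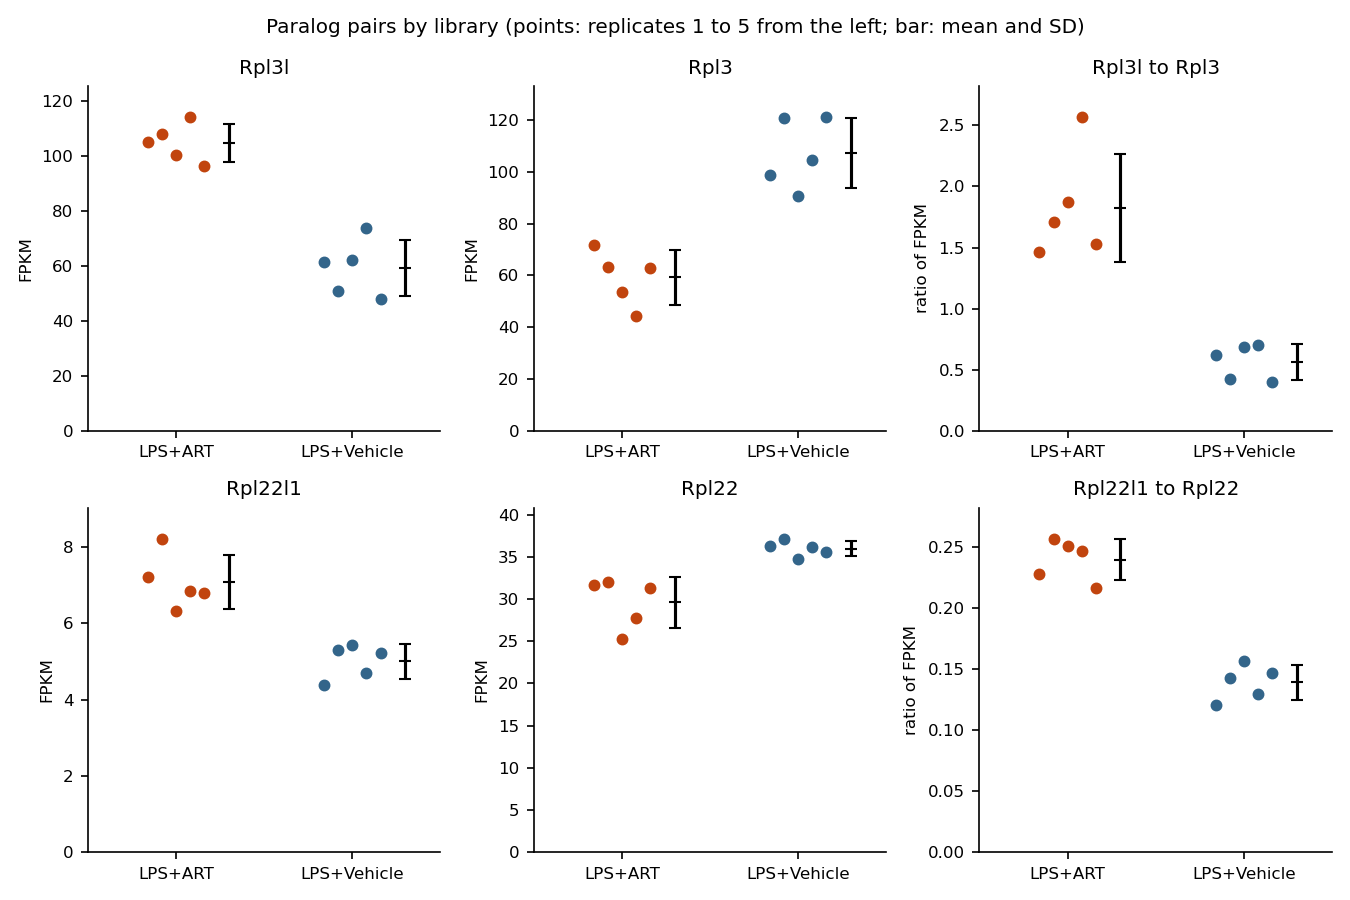
FPKM of Rpl3l, Rpl3, Rpl22l1 and Rpl22 and the paralog ratios within each library (vertical axes from 0), with LPS+ART left of LPS+Vehicle. Points are replicates 1 to 5 and the bar gives mean and SD; the Rpl3l to Rpl3 ratio is 1.46 to 2.56 in LPS+ART, above its range of 0.397 to 0.707 in LPS+Vehicle.

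Rps27 and Rps27l encode zinc-finger proteins of the small subunit, and Rps27l is a known p53 target. Rps27 was at 73.1, 62.2, 51.0, 93.6 and 87.6 FPKM in LPS+ART, against 43.5, 49.5, 55.0, 43.5 and 51.9 FPKM in LPS+Vehicle. It was called higher (log2 fold change 0.56, SE 0.15, limma adjusted p = 0.00728), with overlap through LPS+ART replicate 3. Rps27l was not called as deposited, at 40.4 ± 5.32 FPKM in LPS+ART and 40.9 ± 2.75 FPKM in LPS+Vehicle (SD, n = 5 each), and was called higher after median-ratio scaling (0.36, limma adjusted p = 0.00141). The Rps27l to Rps27 ratio differed by -0.59 on the log2 scale (exact permutation test, adjusted p = 0.0106). Neither the rise of Rps27 nor this ratio passed once its identical copy was counted in. The coding sequence of the member Rps27rt is 100% identical to that of Rps27, so reads there cannot be told apart, and Rps27rt ran from 24.4 to 57.7 FPKM in LPS+ART and from 20.4 to 75.1 FPKM in LPS+Vehicle. Summed over both rows, the reads per library size, in RPM (reads scaled to a library of 1000000), came to 90.5 ± 17.7 RPM in LPS+ART and 70.9 ± 5.48 RPM in LPS+Vehicle (SD, n = 5 each, exact permutation test, p = 0.0714), and the log2 ratio of Rps27l to their summed FPKM differed by -0.14 (exact permutation test, p = 0.421). Both of these combinations were chosen after the values were seen.

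By contrast, Rps27l can be told from Rps27 by its sequence. The first 90 coding bases differ at 24 positions, in capitals, and 76.2% of all aligned coding bases are identical.
Rps27l: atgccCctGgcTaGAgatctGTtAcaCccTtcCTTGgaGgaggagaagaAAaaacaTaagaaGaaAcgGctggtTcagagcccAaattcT
Rps27: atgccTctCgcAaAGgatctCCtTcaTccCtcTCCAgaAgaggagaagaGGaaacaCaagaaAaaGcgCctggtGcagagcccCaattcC

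The remaining paralog pairs gave no call. Rpl7l1, a nucleolar relative of Rpl7, was at 16.3 ± 3.53 FPKM in LPS+ART and 17.0 ± 1.71 FPKM in LPS+Vehicle (SD, n = 5 each). Its ratio to Rpl7 differed by 0.23 on the log2 scale (exact permutation test, adjusted p = 0.0952), and by 0.32 with a call when LPS+ART replicate 3 was left out. Rpl36al and Rpl39l, relatives of Rpl36a and Rpl39, were under the filter and were not tested. Rpl36al held 8 to 24 reads and 0.189 to 0.486 FPKM in LPS+ART and 0.191 to 0.477 FPKM in LPS+Vehicle. Rpl39l held 0 to 20 reads, at up to 0.656 FPKM in LPS+ART and 0.321 FPKM in LPS+Vehicle. Their partners Rpl36a and Rpl39 were not called, with log2 fold changes of -0.12 and -0.11.

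Rplp0, Rplp1 and Rplp2 form the stalk of the large subunit, which recruits the elongation factors. Rplp1 and Rplp0, with Rps3a1 of the small subunit, had the highest mean FPKM of all members. Rplp0 was at 411, 432, 421, 389 and 415 FPKM in LPS+ART, against 467, 475, 434, 454 and 466 FPKM in LPS+Vehicle. It was called lower as deposited (log2 fold change -0.15, SE 0.06, limma adjusted p = 0.0398), but its value was 0.24, called higher, after median-ratio scaling. The deposited call was kept in 3 of 10 fits with a library left out, at -0.17 to -0.13. Rplp1 was at 446 ± 51.3 FPKM in LPS+ART and 509 ± 42.9 FPKM in LPS+Vehicle and Rplp2 at 68.0 ± 8.41 FPKM in LPS+ART and 61.5 ± 5.40 FPKM in LPS+Vehicle (SD, n = 5 each), and neither was called as deposited. A call appeared for Rplp1 without LPS+ART replicate 5 (-0.25) and for Rplp2 without LPS+ART replicate 3 (0.21). Rplp2 was also called higher after median-ratio scaling and with the libraries centred on the median member.

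Rpl10 (chromosome X), whose protein joins the large subunit late in its maturation and lies near the peptidyl transferase centre, fell after Rpl3 the furthest. It was at 114, 121, 101, 97.4 and 129 FPKM in LPS+ART, against 158, 175, 162, 170 and 176 FPKM in LPS+Vehicle. The highest LPS+ART library was below the lowest LPS+Vehicle library (log2 fold change -0.58, SE 0.09, limma adjusted p = 0.000128). After median-ratio scaling the value was -0.19; that call was lost in 6 of 10 fits with a library left out, with LPS+Vehicle replicates 2 and 5 averaged and without LPS+ART replicates 3 and 4. Rpl10a (chromosome 17), a protein of the L1 stalk, was at 80.4 ± 10.0 FPKM in LPS+ART and 67.3 ± 3.21 FPKM in LPS+Vehicle (SD, n = 5 each) and was called higher (log2 fold change 0.25, SE 0.09, limma adjusted p = 0.0266). Its call was lost without LPS+ART replicate 1 or 5 or LPS+Vehicle replicate 1 or 3, at 0.19 to 0.23.

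Among the other large-subunit members, Rpl7 fell to 103 ± 8.75 FPKM in LPS+ART, against 128 ± 2.46 FPKM in LPS+Vehicle, and Rpl15 to 54.9 ± 6.04 FPKM in LPS+ART, against 66.2 ± 2.20 FPKM in LPS+Vehicle (SD, n = 5 each). Neither gene overlapped between the groups, yet after median-ratio scaling they were at 0.08 and 0.12 with no call. Rpl29 was called lower (-0.33, limma adjusted p = 0.0351), with overlapping groups. Its call was lost without any of LPS+ART replicates 3 and 4 and LPS+Vehicle replicates 2, 4 and 5, and after median-ratio scaling it stood at 0.06. Rpl36 was called higher (0.26, limma adjusted p = 0.0461), at 254 ± 33.2 FPKM in LPS+ART and 211 ± 21.4 FPKM in LPS+Vehicle (SD, n = 5 each). That call was kept in 3 of 10 fits with a library left out, with adjusted p from 0.00585 to 0.107.

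In the small subunit, Rps13 (chromosome 7), a protein of the platform side that meets the large subunit, was at 50.1, 49.9, 44.4, 49.5 and 44.7 FPKM in LPS+ART, against 40.9, 42.0, 37.4, 42.1 and 36.7 FPKM in LPS+Vehicle. The groups did not overlap (log2 fold change 0.25, SE 0.07, limma adjusted p = 0.00728). Rps4x, an X-linked core protein, fell to 153 ± 8.91 FPKM in LPS+ART, against 197 ± 10.5 FPKM in LPS+Vehicle (SD, n = 5 each, log2 fold change -0.36, SE 0.07, limma adjusted p = 0.000594). After median-ratio scaling Rps4x was at 0.03 with no call. Rps6, the substrate of the S6 kinases, was lower as deposited (-0.22, limma adjusted p = 0.0399) and at 0.17 with no call after scaling; it too kept the deposited call in 3 of 10 fits with a library left out. Rpsa, also known as the laminin receptor, was at 136 ± 19.8 FPKM in LPS+ART and 151 ± 8.79 FPKM in LPS+Vehicle (SD, n = 5 each) and was not called as deposited. After scaling it stood at 0.23 with a call (limma adjusted p = 0.0328) that was kept in 4 of 10 fits with a library left out. Rps3a1 (386 ± 18.7 FPKM in LPS+ART and 407 ± 29.2 FPKM in LPS+Vehicle, SD, n = 5 each) and Rps29 (144 ± 30.5 FPKM in LPS+ART and 116 ± 21.7 FPKM in LPS+Vehicle) were not called as deposited, and both were called higher after scaling, at 0.32 and 0.69. Rps29 was called higher as deposited without LPS+ART replicate 3 (0.43) or LPS+Vehicle replicate 2 (0.40).

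As deposited, 4 members were higher and 9 lower with no overlap between the groups, against 7.54% and 42.5% of all genes. After median-ratio scaling, 43 members were higher and 1 lower without overlap, against 21.5% and 23.1% of all genes. This scaling also raised the other genes of 20 to 500 FPKM, whose median was 0.28 against 0.30 over the members. Of those genes 54.8% were called higher, and their share without overlap was not counted. Rps10 is among the higher members both times and Rpl24 after scaling. Both passed the filter through LPS+ART alone, so their lack of overlap is a description only. Rps27, which shares its sequence with another row, is also among the higher members after scaling.

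For some members the value is limited by near-identical rows. The table holds 206 rows named as pseudogenes of 54 members, summing to 921 ± 125 FPKM in LPS+ART and 1062 ± 130 FPKM in LPS+Vehicle (SD, n = 5 each). Rps10, a protein of the small-subunit head, averaged only 0.813 FPKM in LPS+ART and 0.474 FPKM in LPS+Vehicle, on 22 to 75 reads a library. The row Rps10-ps2 held 56.5 to 69.6 FPKM in LPS+ART and 59.6 to 73.9 FPKM in LPS+Vehicle. Its value was 0.30 on the log2 scale (limma adjusted p = 0.00521), in a fit it entered through LPS+ART alone, but with its 3 pseudogene rows added the level was 35.8 ± 2.72 RPM in LPS+ART and 37.5 ± 2.90 RPM in LPS+Vehicle (SD, n = 5 each, exact permutation test, p = 0.357). The direction turned with this way of assigning reads, a combination chosen after the values were seen. Rpl24, a bridge between the subunits, held 7 to 36 reads a library and likewise passed the filter through LPS+ART alone (log2 fold change 0.42, limma adjusted p = 0.00212), with 0.700 to 0.994 FPKM in LPS+ART and 0.221 to 0.712 FPKM in LPS+Vehicle.

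Rpl17 (chromosome 18) lies at the exit of the nascent chain and was among the most uneven members. It was at 30.3, 53.7, 69.9, 49.8 and 33.2 FPKM in LPS+ART and at 25.2, 33.5, 71.6, 25.8 and 27.7 FPKM in LPS+Vehicle. The row Rpl17-ps10 was at 123, 102, 48.0, 65.5 and 104 FPKM in LPS+ART and at 138, 147, 51.6, 154 and 148 FPKM in LPS+Vehicle, lowest in the libraries where Rpl17 was highest. With 9 pseudogene rows added, the level was 142 ± 15.8 RPM in LPS+ART and 155 ± 5.78 RPM in LPS+Vehicle (SD, n = 5 each, exact permutation test, p = 0.127). Rps27a, the ubiquitin fusion, Rpl7a and Rps27rt were uneven too. Their coefficients of variation were 27.8 to 37.3% over the LPS+ART libraries and 31.1 to 45.8% over the LPS+Vehicle libraries. Their limma adjusted p as deposited were 0.304 to 0.924. Without LPS+Vehicle replicate 3, Rpl17 was called higher (0.68) and Rps27rt lower (-0.73).

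Longer coding sequences went with lower fold changes. Across the 79 members averaging 5 FPKM or more, Spearman's rho between log2 fold change as deposited and coding length was -0.38. These points come from the same 10 libraries, and genes are not independent replicates. Over all 82 tested members rho was -0.34 as deposited, -0.35 after median-ratio scaling and -0.40 after cyclic loess. The 26 shortest (138 to 390 coding bases) had a median of -0.02, with 3 higher and 2 lower, and the 26 longest (588 to 1257 coding bases) a median of -0.15, with 2 higher and 9 lower. Other coding genes of 20 to 500 FPKM also had a negative rho, of -0.17 over 1520 genes. RNA quality values per library were not used here, and their part in this was not tested.

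**Figure D5:**
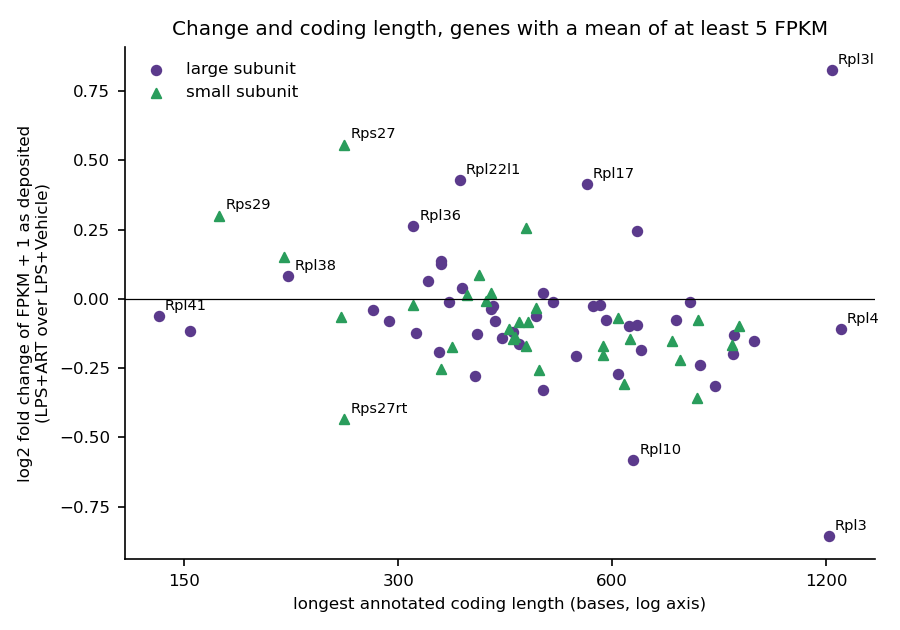
Log2 fold change of FPKM + 1 as deposited (LPS+ART over LPS+Vehicle, vertical axis) against the longest annotated coding length (log axis) for the 79 ribosomal protein genes averaging 5 FPKM or more, with large-subunit members as circles and small-subunit members as triangles. Short members scatter around and above 0 and most long ones lie below it, with Rpl3l and Rpl3, of nearly equal length, at opposite ends (Spearman's rho -0.38).

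The start sites of members were searched for short motifs. In RefSeq (GRCm38.p6), 64 members had an entry of 250 bases before and 50 after the start. CTTTCC, a pyrimidine run found at TOP start sites, occurred on the given strand in 42.2% of them and in 16% of all 27025 genes. On either strand it occurred in 53.1% and 29.3%. CCGGAAG, a core that ETS factors bind, occurred on either strand in 40.6% of them and in 9.93% of all genes. TATAAA occurred on the given strand in 9.38% of them and in 9.77% of all genes. The start sites of the Rpl22 pair are shown because the partners differed in fold change, and a link of motif to fold change was not tested. The stretches run from 60 bases before to 30 after the start, with exact matches in capitals (CTTTCC for Rpl22 at chr4:152325666-152325755, TATAAA for Rpl22l1 at chr3:28805448-28805537, both on the plus strand). The CTTTCC of Rpl22 lies upstream of its start and not at it. Rpl22l1 has an unmarked pyrimidine run, ttctcttccc, next to its start. These matches therefore do not tell which partner has a TOP tract. Another Rpl22 start site in the table held neither motif in the same window.
Rpl22l1: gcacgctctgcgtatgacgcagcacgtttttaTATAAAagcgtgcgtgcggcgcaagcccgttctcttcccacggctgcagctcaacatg
Rpl22: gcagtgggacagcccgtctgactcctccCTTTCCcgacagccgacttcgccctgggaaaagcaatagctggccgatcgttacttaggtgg
A match describes these letters only.

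Genes of the same mRNA class outside the naming rule also depended on scaling. Of 6 TOP mRNAs for ribosome-bound or fused proteins, 0 were called by limma as deposited, 0 had an unadjusted p under 0.05 and 0 were called by limma-voom on recovered reads; all 6 were called higher after median-ratio scaling. Their median log2 fold change was 0.00 as deposited, against -0.08 over the members and -0.27 over all genes. After scaling, 29.9% of all genes were called higher, as were 54.8% of the non-member genes of 20 to 500 FPKM, the range of most of the 6. Fau, the fusion that gives a small-subunit protein, was at 72.7 ± 5.93 FPKM in LPS+ART and 79.9 ± 6.81 FPKM in LPS+Vehicle. Rack1, a scaffold on the small subunit, was at 60.4 ± 6.66 FPKM in LPS+ART and 67.3 ± 4.30 FPKM in LPS+Vehicle (SD, n = 5 each for both).

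Of 12 elongation factors and their regulators 7 were called as deposited, all of them lower, with a median of -0.21. Over all genes tested, 11.8% were called higher and 52.9% lower as deposited, with a median of -0.27. After median-ratio scaling those shares were 29.9% and 30.3%. Eef1a1 and Eef1a2, which deliver aminoacyl-tRNA, were at 390 ± 25.6 and 240 ± 45.0 FPKM in LPS+ART and at 578 ± 55.5 and 441 ± 33.2 FPKM in LPS+Vehicle. Eef2k, the kinase that inhibits eEF2, was at 7.78 ± 2.39 FPKM in LPS+ART and 20.4 ± 2.57 FPKM in LPS+Vehicle (SD, n = 5 each for all). After median-ratio scaling 5 of the 12 were higher and 2, Eef2k and Eef1a2, were lower. Of 15 other genes listed for TOP mRNAs, mostly initiation factors and RNA-binding proteins, 1 was higher and 7 lower as deposited (median -0.16), and 9 and 2 after scaling. The 7 lower include Vim, an intermediate filament protein (-1.45), and Cct4, a chaperonin subunit (-0.34), and Vim was also lower after scaling. Hnrnpa1 was the higher gene, at 90.1 ± 3.42 FPKM in LPS+ART and 61.4 ± 8.51 FPKM in LPS+Vehicle. Eif3a, a subunit of initiation factor eIF3, was at 25.7 ± 1.94 FPKM in LPS+ART and 38.9 ± 2.52 FPKM in LPS+Vehicle (SD, n = 5 each for both).

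Ribosome biogenesis genes had a median log2 fold change of 0.22 as deposited, against -0.08 over the ribosomal protein genes. Of 50 tested, 22 were called higher and 9 lower as deposited, and 41 and 1 after median-ratio scaling. The shares of all genes were 11.8% higher and 52.9% lower as deposited, and 29.9% and 30.3% after scaling. Nat10, an rRNA acetyltransferase, was at 8.50, 8.70, 9.64, 8.86 and 8.92 FPKM in LPS+ART, against 4.24, 4.68, 4.17, 5.32 and 4.37 FPKM in LPS+Vehicle, with no overlap. Gar1, of the box H/ACA particles that modify rRNA, ran from 9.47 to 12.2 FPKM in LPS+ART and from 5.27 to 8.29 FPKM in LPS+Vehicle. Gnl3l, a nucleolar GTPase, and Riok2, a kinase of small-subunit maturation, were lower as deposited, at -0.51 and -0.48. Of 31 RNA polymerase I and III genes, 2 were higher and 19 lower as deposited (median -0.27), and 10 and 8 after scaling. The 2 higher as deposited were Taf1d, at 0.55, and Twistnb, at 0.48. The median over all genes as deposited was also -0.27. Polr1a, the catalytic subunit of RNA polymerase I, was at 3.82 ± 0.143 FPKM in LPS+ART and 6.91 ± 0.439 FPKM in LPS+Vehicle, and Gtf3c1, of the polymerase III factor TFIIIC, at 2.14 ± 0.326 FPKM in LPS+ART and 6.51 ± 0.988 FPKM in LPS+Vehicle (SD, n = 5 each for all).

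Of 10 MYC network genes, 3 were higher and 5 lower as deposited (median -0.22), and 4 and 1 after scaling. Among all genes 11.8% were higher and 52.9% lower as deposited (median -0.27), and 29.9% and 30.3% after scaling. Myc was at 20.3, 28.2, 28.9, 31.6 and 31.6 FPKM in LPS+ART, against 5.28, 5.60, 3.96, 8.41 and 5.42 FPKM in LPS+Vehicle. All LPS+ART libraries lay above all LPS+Vehicle libraries (log2 fold change 2.13, SE 0.16, limma adjusted p = 4.47e-06). Mxd4, an antagonist that competes with MYC for its partner, was lower, at -0.59, and Mxd1, an antagonist of the same family, was higher, at 0.47. Mxd1 overlapped between the groups, at 2.06, 2.38, 4.04, 4.48 and 1.81 FPKM in LPS+ART replicates 1 to 5. It ran from 1.62 to 1.93 FPKM in LPS+Vehicle. Of 32 genes of mTORC1 signalling and TOP mRNA control, 2 were higher and 23 lower as deposited (median -0.34), and 6 and 13 after scaling. Nprl2, part of a complex that restrains mTORC1, was at 1.19 ± 0.243 FPKM in LPS+ART and 5.01 ± 0.960 FPKM in LPS+Vehicle, and Rragd, a Rag GTPase that recruits mTORC1 to lysosomes, at 6.77 ± 1.34 FPKM in LPS+ART and 15.2 ± 4.30 FPKM in LPS+Vehicle. Sesn2, a leucine sensor that inhibits mTORC1 signalling, was higher, at 2.32 ± 0.478 FPKM in LPS+ART and 1.64 ± 0.125 FPKM in LPS+Vehicle (SD, n = 5 each for all).

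Of 19 genes of ribosome quality control and ribosome stress, 3 were higher and 10 lower as deposited (median -0.19), and 8 and 6 after scaling. For this list and the next, the shares of all genes were 11.8% higher and 52.9% lower as deposited, and 29.9% and 30.3% after scaling. Cdkn1a, a cell cycle inhibitor and p53 target, was at 107 ± 14.7 FPKM in LPS+ART and 45.2 ± 8.11 FPKM in LPS+Vehicle, and Rps27l, another p53 target, had a log2 fold change of -0.02 as deposited and 0.36, with a call, after scaling. Ltn1, the ubiquitin ligase for stalled chains, was at 4.01 ± 0.630 FPKM in LPS+ART and 7.47 ± 0.447 FPKM in LPS+Vehicle (SD, n = 5 each for both). Of 14 genes of nonsense-mediated decay, 1 was higher and 6 lower (median -0.13), and 7 and 2 after scaling. Upf3b was lower at -0.77 and Magoh, of the exon junction complex, higher at 0.37.

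In whole hearts, fewer cells of a type and less RNA per cell cannot be told apart, and markers of several cell types differed beside these results. The marker counts stand beside 11.8% of all genes called higher and 52.9% lower as deposited, and 29.9% and 30.3% after scaling. As deposited, of 12 cardiomyocyte markers 6 were called higher and 3 lower. Their summed level was 9462 to 11683 FPKM in LPS+ART and 8200 to 8805 FPKM in LPS+Vehicle. Macrophage markers (1 of 9 higher, 7 lower) summed to 26.8 to 42.7 FPKM in LPS+ART and 56.5 to 85.0 FPKM in LPS+Vehicle. Fibroblast markers (5 of 10 called, all lower) summed to 286 to 436 FPKM in LPS+ART and 366 to 594 FPKM in LPS+Vehicle, and smooth muscle markers (5 of 6 called, all lower) to 123 to 176 FPKM in LPS+ART and 184 to 247 FPKM in LPS+Vehicle. Endothelial markers (1 of 10 higher, 6 lower) summed to 263 to 408 FPKM in LPS+ART and 322 to 367 FPKM in LPS+Vehicle. Neutrophil markers (2 of 7 called, both lower) summed to 30.2, 30.1, 238, 123 and 53.0 FPKM in LPS+ART replicates 1 to 5. They summed to 29.1 to 68.9 FPKM in LPS+Vehicle. The LPS+ART sum was highest in replicates 3 and 4, the libraries with the lowest member sums in that group. Erythroid markers (4 of 5 called, all higher) summed to 56.9 to 129 FPKM in LPS+ART and 19.99 to 66.7 FPKM in LPS+Vehicle. After median-ratio scaling the calls were 8 higher and 2 lower for cardiomyocyte, 2 and 6 for macrophage, 3 and 4 for endothelial and 5 and 0 for erythroid markers, with 4 fibroblast, 2 smooth muscle and 1 neutrophil marker lower. Of the 5 platelet, T and NK and B cell markers tested, 0 were called by limma as deposited, 0 had an unadjusted p under 0.05 and 0 were called by limma-voom, with T and NK sums of at most 2.13 FPKM and B cell sums of at most 1.67 FPKM in any library. Their part in the ribosomal protein results, including the Rpl3l to Rpl3 ratio, was not tested.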

How the data were processed

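Poly(A) RNA from hearts was sequenced in pairs as 10 libraries, per the labels' protocols. The authors deposited a single table of FPKM values, judged from the values since its header names samples only; the submitters' processing notes name the build mm9, and what aligned and counted the reads is not given in the sources used here, nor is the strand setting. Values were not rescaled between libraries. Reads were recovered from the FPKM steps and GENCODE M21 exon lengths (98.2% of identifiers matched, and 29005 genes gave whole reads within 0.01). Mates appear to be counted apart, since 64.0% of read numbers of 1 to 4 were even, so intervals from counts would be too narrow and none is given.

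The fit was limma-trend (limma 3.58.1, R 4.3.3) on log2(FPKM + 1), which understates changes of low genes, over all genes averaging 0.5 FPKM or more, with group as the only term and Benjamini-Hochberg adjustment over 13314 genes; it was tested on simulated data. Named fold changes are on that scale unless said to be of mean FPKM. Paralog ratios used log2 with 0.01 added and two-sided exact permutation tests. The labels give group sizes but do not tie each library to an animal, so p-values cover the spread among libraries, which may be technical. Members, context lists and marker lists were chosen with earlier results of these data known. Members named are the stalk genes and Rpsa, paralog pairs, the 3 most abundant, the 6 largest rises and falls among called members as deposited and after scaling, and those under the filter; Rpl15, Rps6, Rps13, Rpl10a, Rps27a, Rpl7a and Rps27rt were named after their values were seen. A gene that this rule names and 1 context gene are not reported here, though both stay in the counts. Context genes are up to 2 rises and 2 falls of a list. Alternatives were median-ratio and TMM scaling, cyclic loess, nuclear totals, centring on members, pseudocounts of 0.5 and 0.1, a filter of 1 and none, a replicate block, limma-voom on recovered reads, and libraries averaged or left out. Figures used matplotlib 3.10.9.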

Additional observations from a re-analysis of the deposited data

Results flagged for a closer look

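In 6 cases a single library stood apart from the other 4 of its group by Dixon's ratio, which flags about 1 in 20 groups by chance, and 74 groups were examined. Rpl17 was at 71.6 FPKM in LPS+Vehicle replicate 3, against 25.2 to 33.5 FPKM in the other LPS+Vehicle libraries. Rpl29 was at 94.8 FPKM in LPS+Vehicle replicate 2, against 71.3 to 77.1 FPKM in the others. Rplp2 was at 70.9 FPKM in the same library, against 57.7 to 60.6 FPKM. Rpl36al was at 0.477 FPKM there too, against 0.191 to 0.271 FPKM, on reads too few for a test. Rpl7 was lowest in LPS+Vehicle replicate 3, at 123.3 FPKM, against 127.8 to 129.6 FPKM in the other 4. Rps6 was lowest in that library too, at 185.9 FPKM, against 210.2 to 216.5 FPKM.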

How the results depend on the processing

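Scaling moved the counts of called members most. Against 23 calls as deposited, 8 higher and 15 lower, median-ratio scaling gave 64 (62 and 2) and TMM 68 (66 and 2); loess gave 13 higher, centring on members 14 higher and 6 lower, and nuclear totals 7 lower. Averaging LPS+Vehicle replicates 2 and 5 gave 9 lower, and leaving out LPS+ART replicates 3 and 4 gave 15 calls, 7 lower. The LPS+ART pair was picked for its low member sums, so fewer lower calls without it are no separate result. With each library left out, 16 to 24 were called, 6 to 10 higher and 9 (without LPS+Vehicle replicate 2 or 5) to 17 lower; after median-ratio scaling 1 to 2 were lower, and 1 with the vehicle pair averaged or LPS+ART replicates 3 and 4 left out.

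Under median-ratio and TMM scaling the log2 fold change changed sign in Rpl22 (0.10, 0.11), Rpl29 (0.06, 0.06), Rpl7 (0.08, 0.08), Rpl15 (0.12, 0.12), Rps6 (0.17, 0.18), Rplp0 (0.24, 0.25), Rps27l (0.36, 0.37), Rps3a1 (0.32, 0.32), Rps4x (0.03, 0.04) and Rpsa (0.23, 0.23), and under TMM with a call in Rpl7l1 (0.30) and Rplp1 (0.21). With near-identical rows combined, Rps10 was at -0.07 and Rps27 at 0.35, and the Rps27l to Rps27 ratio at -0.14.

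Replicate numbers were not shown to pair the libraries: correlations of same-numbered deviations were 0.147, -0.07, 0.123, -0.021 and 0.182. With the replicate block, 9 members were higher and 14 lower; the ratio differences of Rpl3l (1.70), Rpl22l1 (0.79) and Rps27l (-0.59) had adjusted p = 0.0833 in an exact sign-flip test, which 5 pairs cannot bring under the threshold. The Rpl7l1 to Rpl7 ratio passed without LPS+ART replicate 3 (0.32; lowest 0.16 with another library left out) and without replicates 3 and 4 (0.40). The causes were not tested. Depth limits Rpl24, Rpl36al and Rpl39l, which held at most 36 reads in any library; Rps10 held at most 75, with more on its pseudogene rows.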
